A study of Mus musculus with 16 samples.

Results

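Among the genes that moved most in mouse cortex without the kinases MAP2K1 and MAP2K2, 6 were picked for description, *Tmem196*, *Zdhhc23*, *Galnt9*, *Lamp5*, *Bace2* and *Glp2r*. They were chosen by the size of their measured difference between mutants and controls at postnatal day (P) 9 or P14, so their values at those ages are described and not tested, and only P21, which played no part in the choice, was tested. All 6 were measured, out of 19938 genes on the arrays of P9 and P14 and 22180 on those of P21. RNA of cortex was hybridized to Affymetrix arrays, 1 array for each mouse. The loss-of-function mutants carried a loxP-flanked *Map2k1* allele on both chromosomes, a germline deletion of *Map2k2* and Cre recombinase expressed from *Neurod6* (*Map2k1/2;Neurod6-Cre*), and were compared with controls in 2 mutants and 2 controls at P9 and in 3 mutants and 3 controls at P14. The gain-of-function mutants, 3 against 3 controls at P21, carried *Neurod6-Cre* and a Cre-dependent, constitutively active *Map2k1* (*ca-Map2k1;Neurod6-Cre*). *Neurod6-Cre* recombines in excitatory neurons, so interneurons and glia of the loss-of-function mutants keep MAP2K1 but, with the germline deletion, lack MAP2K2. Controls were littermates with or without Cre, and the sources used here do not say which of them carried Cre or a *Map2k2* deletion.

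MAP2K1 and MAP2K2 phosphorylate the kinases ERK1 and ERK2, which carry signals from growth factor receptors and synaptic activity to transcription factors in the nucleus. In cortical excitatory neurons the pathway is known for its part in plasticity, and genes that inhibit it, such as the sprouty-related *Spred* genes, are themselves among its targets. The 6 genes belong to no single pathway. *Tmem196* encodes a predicted membrane protein of unclear function. *Zdhhc23* encodes a palmitoyltransferase, an enzyme that attaches a fatty acid to cysteines of other proteins and which also binds neuronal nitric oxide synthase. *Galnt9* encodes a brain-expressed enzyme of the Golgi that starts O-linked sugar chains by adding N-acetylgalactosamine. *Lamp5* encodes a neuronal relative of the lysosome-associated membrane proteins and marks upper-layer excitatory neurons and a class of interneurons. *Bace2* encodes an aspartic protease, the close relative of the beta-secretase BACE1 that cleaves the amyloid precursor protein. *Glp2r* encodes the receptor of glucagon-like peptide 2, a hormone best known for its action on the gut.

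The genes lie on 5 chromosomes (GRCm38.p6). *Tmem196* spans chr12:119946127-120021242, *Galnt9* chr5:110544032-110621383, *Lamp5* chr2:136052025-136069917 and *Glp2r* chr11:67664156-67771184. *Zdhhc23* (chr16:43965033-43979820) and *Bace2* (chr16:97356728-97442936) share chromosome 16. Because 4 of the genes were lower and 2 higher in the same mice, the 250 bases before each gene start in the RefSeq promoter table were searched on both strands for 6 motifs, the ETS motif CCGGAAGT, the cyclic AMP response element TGACGTCA and its core TGACGT, which the longer motif contains, the AP-1 motif TGANTCA, the EGR motif GCGTGGGCG and the E-box CAGATG of *Neurod* factors. The table held 7 starts for 5 of the genes, and *Bace2* was not matched. A single match was found, an E-box before the inner of 2 *Galnt9* starts (chr5:110603505, the other being at 110544355), and 14.4% of the 32851 promoters in the table hold that E-box. The other motifs are found in 2.88% (ETS), 1.55% (cyclic AMP response element), 6.47% (its core), 6.75% (AP-1) and 0.536% (EGR) of all promoters. The stretch with the match is shown with the E-box in capitals, beside those of *Tmem196*, the lowest of the 6 at P14 relative to controls, and of *Glp2r*, which was higher.
Galnt9, inner start, chr5:110603255-110603504, plus strand: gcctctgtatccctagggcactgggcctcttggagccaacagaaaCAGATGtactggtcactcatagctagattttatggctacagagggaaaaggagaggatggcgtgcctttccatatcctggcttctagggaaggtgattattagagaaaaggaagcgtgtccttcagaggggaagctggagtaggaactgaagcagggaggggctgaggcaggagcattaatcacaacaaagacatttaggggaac
Tmem196, chr12:119945877-119946126, plus strand: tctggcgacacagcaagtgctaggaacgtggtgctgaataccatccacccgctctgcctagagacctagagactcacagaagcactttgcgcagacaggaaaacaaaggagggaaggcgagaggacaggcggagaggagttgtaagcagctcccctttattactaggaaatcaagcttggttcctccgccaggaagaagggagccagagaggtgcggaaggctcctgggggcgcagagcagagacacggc
Glp2r, chr11:67771154-67771403, minus strand: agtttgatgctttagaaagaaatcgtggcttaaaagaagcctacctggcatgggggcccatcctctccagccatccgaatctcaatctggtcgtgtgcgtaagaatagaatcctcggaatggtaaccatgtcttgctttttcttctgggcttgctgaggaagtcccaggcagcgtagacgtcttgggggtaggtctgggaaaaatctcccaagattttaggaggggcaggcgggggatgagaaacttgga
The promoter of *Zdhhc23* was the richest of the 7 in G and C: they made up 80.8% of its bases, against 56.8% before *Tmem196*, 50.4% before *Glp2r* and a median of 52.4% over all promoters.

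Values are log2 array signals (1 unit is a doubling). The sources used here do not say whether the ages were normalized together, and their array values differ in level, so each age is read alone. The median array value ran from 7.91 to 8.08 at P14, from 6.13 to 6.18 at P9 and from 6.23 to 6.31 at P21. Of 7 markers of cortical excitatory neurons measured, none was called at any age by limma. Over all genes, 0.0752% were called at P9, 1.09% at P14 and 0% at P21, so 7 markers would hold few calls or none in any case. P14 differences of the markers ran from -0.79 (*Slc17a6*, limma adjusted p = 0.365) to 0.34 with a median of 0.03. Those at P9 ran from -0.94 (*Slc17a6*, limma adjusted p = 0.0627) to 0.19 with a median of 0.07. *Slc17a7* was at 12.34 in P14 mutants and 12.39 in P14 controls. The arrays of P14 mutant 1 and control 2 stood apart from those of mice 9 to 12 and deviated together from their group means (r = 0.76 across genes), so P14 differences are given within mice 9 to 12 as well. P14 mutants 9 and 11 were female by *Xist* and Y-linked genes and all other mice were male. Within mice 9 to 12, genotype and sex therefore cannot be told apart, in differences and in calls alike. Levels of *Map2k1* summarize the whole transcript, of which exon 3 alone was deleted, and so do not check the loss-of-function genotypes. The paper reports a lower signal from probes for the deleted exon in loss-of-function mutants of the later age. Whole-transcript levels were 10.87 ± 0.06 in P14 mutants and 10.80 ± 0.07 in P14 controls (SD, n = 3 each). The P21 mutants carry an added active *Map2k1* and no such deletion. Their *Map2k1* level was 10.33 ± 0.04, against 10.10 ± 0.02 in P21 controls (SD, n = 3 each). This difference of 0.23 (standard error 0.06) was not called (limma adjusted p = 0.310). Whether the arrays read the added allele was not tested. *Neurod6*, whose locus carries Cre, was at 7.39 ± 0.46 in P9 mutants and 9.19 ± 0.13 in P9 controls (SD, n = 2 each; limma adjusted p = 0.0925), at 6.41 ± 0.32 in P14 mutants and 9.48 ± 0.62 in P14 controls (SD, n = 3 each; limma adjusted p = 0.00765), and at 8.40 ± 0.11 in P21 mutants and 8.64 ± 0.16 in P21 controls (SD, n = 3 each; limma adjusted p = 0.463).

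*Tmem196*, *Zdhhc23*, *Galnt9* and *Lamp5* were lower in every *Map2k1/2;Neurod6-Cre* mouse than in every control of its age, and *Bace2* and *Glp2r* were higher. Fold differences ran from 1.91 (*Zdhhc23*) to 2.92 (*Tmem196*) at P9 and from 1.84 (*Galnt9*) to 3.77 (*Tmem196*) at P14. All 6 genes were thus without overlap between genotypes at both ages, as were 41.7% of all genes at P9 (19.7% lower and 22% higher in mutants) and 13.6% at P14 (6.52% lower and 7.11% higher), and the choice of the genes fixes their count. By size of difference, the 6 ranked between 9 (*Tmem196*) and 47 (*Zdhhc23*) of 19938 genes at P9 and between 9 (*Tmem196*) and 115 (*Galnt9*) at P14. The median difference over all genes was 0.01 at P9 and 0.02 at P14. In RNA of whole cortex, fewer cells that express a gene and less RNA per cell cannot be told apart.

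**Figure D1:**
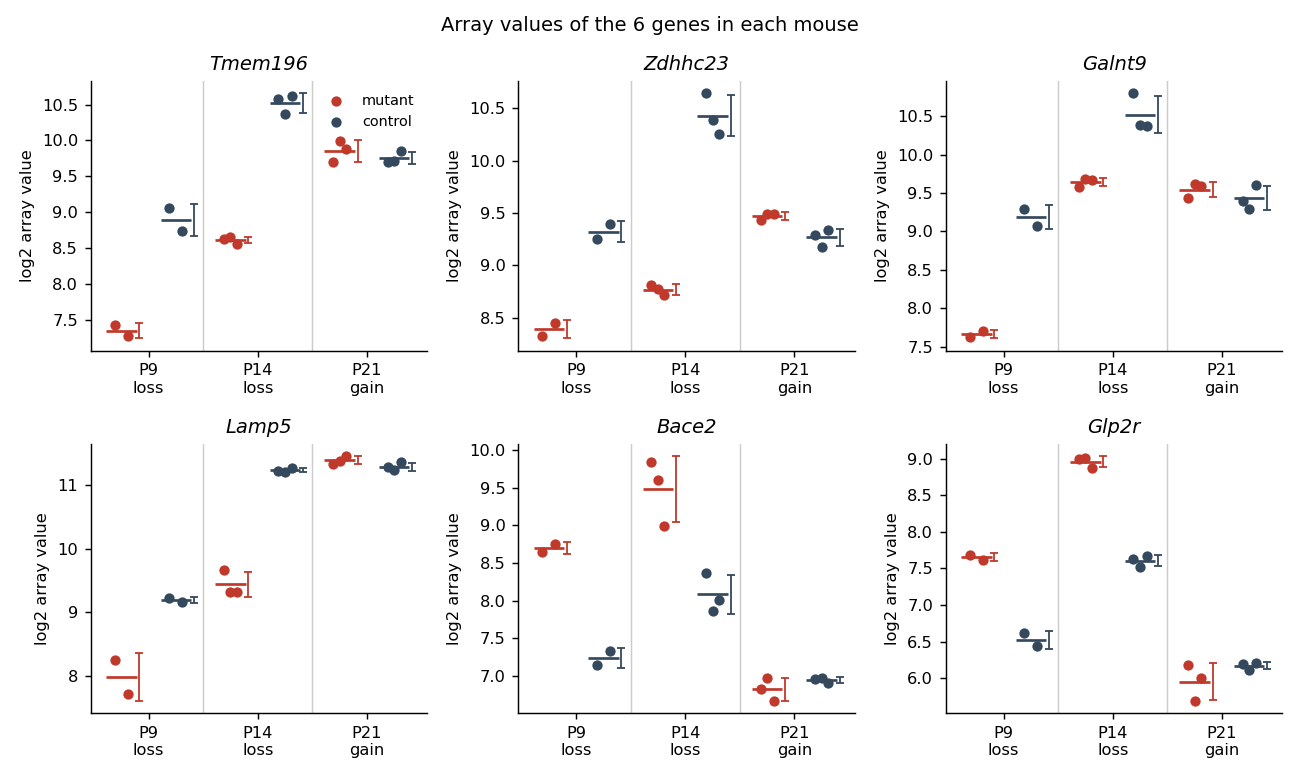
Log2 array values (vertical axes) of the 6 genes in each mouse, by age and genotype (mutants in red left of controls in blue; points are mice, horizontal lines group means, vertical bars SD). Mutants and controls are apart for every gene at P9 and P14, whereas at P21 they overlap for all but *Zdhhc23*.

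*Tmem196* had the lowest P14 difference of the 6. At P9 it stood at 7.42 and 7.27 in mutants 1 and 4, against 9.05 and 8.73 in controls 2 and 3. At P14 it stood at 8.62, 8.65 and 8.56 in mutants 1, 9 and 11, against 10.58, 10.37 and 10.62 in controls 2, 10 and 12. The 3 P14 mutants lay within 0.1 of each other, and the lowest control was 1.72 above the highest mutant. Mutants minus controls came to -1.55 at P9 and -1.91 at P14, and stayed between -1.99 and -1.86 when each P14 mouse was left out in turn. Within mice 9 to 12 the P14 difference was -1.89, and mutant 1 minus control 2 gave -1.96.

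The second probe set that is annotated to *Tmem196* differed far less. Its P14 values were 9.17, 9.68 and 9.37 in mutants 1, 9 and 11, against 9.71, 9.66 and 9.61 in controls 2, 10 and 12, so that mutant 9 lay among the controls. The genotype difference of this set, the dimmer on average over the 10 arrays, was -0.26 at P14, against -1.91 for the brighter, and -0.51 at P9, where both mutants (7.58 and 7.37) were below both controls (8.12 and 7.84). Probe positions were not used here, so which part of the transcript each set reads was not tested. The other 5 genes had a single probe set, as had all 6 at P21.

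**Figure D2:**
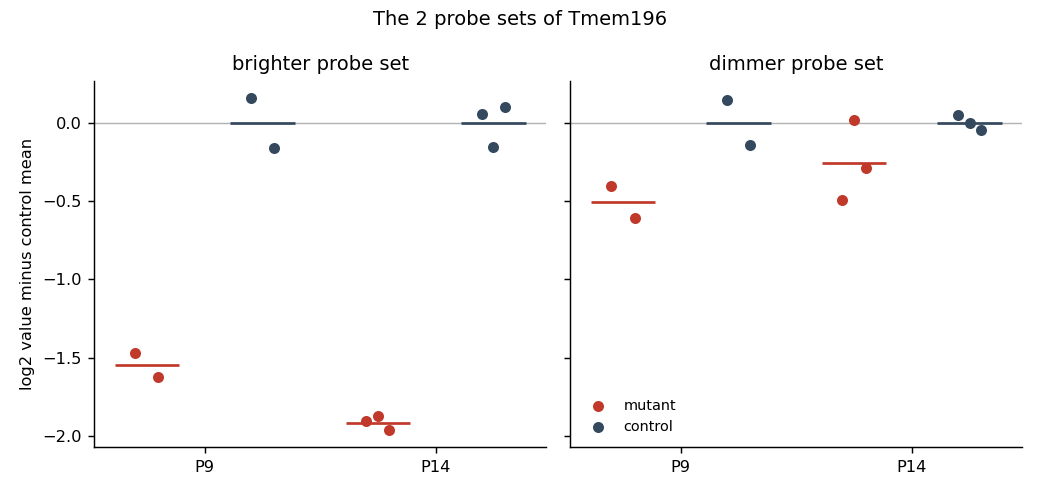
Log2 values of the brighter (left) and dimmer (right) probe set of *Tmem196* minus the control mean of the age (vertical axis), for each mutant (red) and control (blue) at P9 and P14, with lines at group means. P14 mutants lie at -1.96 to -1.87 by the brighter set and at -0.49 to 0.02 by the dimmer.

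*Zdhhc23* followed *Tmem196* and *Lamp5* in size at P14. Its P9 values were 8.33 and 8.45 in mutants 1 and 4, against 9.25 and 9.39 in controls 2 and 3. Its P14 values were 8.82, 8.78 and 8.71 in mutants 1, 9 and 11, against 10.64, 10.39 and 10.25 in controls 2, 10 and 12. The P14 mutants were spread less (SD 0.05) than the P14 controls (SD 0.20), of which control 2 was the highest. The genotype difference was -0.93 at P9 and -1.66 at P14, with -1.58 within mice 9 to 12 and -1.83 for mutant 1 minus control 2.

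For *Lamp5*, P9 values were 8.26 and 7.72 in mutants 1 and 4, against 9.23 and 9.17 in controls 2 and 3. Its P14 values were 9.67, 9.32 and 9.32 in mutants 1, 9 and 11, against 11.22, 11.20 and 11.27 in controls 2, 10 and 12. The controls agreed closely at both ages, and the spread lay in the mutants, in which mutant 4 was the lowest at P9 and mutant 1 the highest at P14. The difference was -1.21 at P9 and -1.79 at P14. It was -1.91 within mice 9 to 12, where both mutants were female and both controls male. For male mutant 1 against the 3 controls it was -1.56. Of a list for the interneuron class that expresses *Lamp5*, none of 9 measured markers (*Ndnf*, *Reln* and *Npy* among them) was called at either age by limma at an adjusted p under 0.05, against 0.0752% of all genes at P9 and 1.09% at P14. The list also holds *Gad1*, *Gad2* and *Slc32a1*, which inhibitory neurons in general express, so it does not read this class alone. Its P14 differences ran from -0.45 to 0.22, with 4 above 0 and 5 below. The median difference of these markers was 0.05 at P9 and -0.06 at P14, and the mean level over the list ran from 10.05 to 10.37 in P14 mutants and from 10.09 to 10.39 in P14 controls. Of 9 markers of upper-layer neurons, 1, the layer 4 transcription factor *Rorb*, was called at P14, and it was higher in mutants (10.90 ± 0.07 in mutants, against 10.05 ± 0.06 in controls, SD, n = 3 each; limma adjusted p = 0.00722), a call lost without mutant 11 or control 12 (adjusted p = 0.0555 and 0.0621) and held within mice 9 to 12 (adjusted p = 0.00340). The median of the upper-layer list was 0.28 at P9 and 0.13 at P14, with 5 markers above 0 and 4 below at each age. Its differences ran from -0.53 to 0.78 at P9 and from -0.56 to 0.85 at P14. *Rasgrf2* was the lowest and *Rorb* the highest at both ages.

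*Galnt9* was the one among the 4 lower genes with a larger difference at P9 than at P14. Its P9 values were 7.62 and 7.70 in mutants 1 and 4, against 9.29 and 9.07 in controls 2 and 3. Its P14 values were 9.58, 9.68 and 9.67 in mutants 1, 9 and 11, against 10.80, 10.39 and 10.37 in controls 2, 10 and 12. Control 2 stood above the other P14 controls, and the difference was accordingly -0.70 within mice 9 to 12 and -1.22 for mutant 1 minus control 2. The difference over all mice was -1.52 at P9 and -0.88 at P14.

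*Bace2* was higher in mutants at both ages and was the most variable of the 6 at P14 (SD 0.44 in mutants and 0.26 in controls). Its P9 values were 8.64 and 8.75 in mutants 1 and 4, against 7.14 and 7.33 in controls 2 and 3. Its P14 values were 9.85, 9.60 and 8.99 in mutants 1, 9 and 11, against 8.37, 7.86 and 8.01 in controls 2, 10 and 12. Mutant 11 was the lowest of the mutants and still 0.62 above the highest control. The difference was 1.46 at P9 and 1.40 at P14, and leaving out 1 P14 mouse at a time gave 1.21 to 1.64. It was 1.36 within mice 9 to 12 and 1.47 for mutant 1 minus control 2.

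*Glp2r* was higher in mutants with little spread among mice. At P9 it stood at 7.69 and 7.62 in mutants 1 and 4, against 6.61 and 6.44 in controls 2 and 3. At P14 it stood at 9.00, 9.01 and 8.87 in mutants 1, 9 and 11, against 7.62, 7.52 and 7.67 in controls 2, 10 and 12. The controls lay below the median of every P14 array, and the mutants above it. The difference was 1.13 at P9 and 1.35 at P14, with 1.34 within mice 9 to 12 and 1.37 for mutant 1 minus control 2. When each P14 mouse was left out in turn it ran from 1.31 to 1.40.

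To set both ages side by side, the 10 loss-of-function arrays were quantile-normalized together. Levels are given as a description, since age cannot be told apart from any separate handling of the arrays of each age. In controls, *Lamp5* was at 10.86 ± 0.10 at P14 (SD, n = 3) and 9.85 ± 0.03 at P9 (SD, n = 2), a difference between ages above that of 97.1% of all genes. *Tmem196* was 0.53 and *Galnt9* 0.25 higher at P14 than at P9 in controls, while *Zdhhc23* differed by 0.03, less than its spread. *Bace2* and *Glp2r* had the opposite course in controls, with P14 minus P9 differences of -0.79 and -0.77, above those of 7.27% and 7.83% of all genes.

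In mutants, *Glp2r* stood at 8.40 ± 0.10 at P14 (SD, n = 3) and 8.46 ± 0.07 at P9 (SD, n = 2), within its spread. *Bace2* stood at 9.00 ± 0.47 at P14 (SD, n = 3) and 9.37 ± 0.07 at P9 (SD, n = 2) in mutants, also within its spread. The level of *Zdhhc23* in mutants, in contrast, was lower at P14 (8.17 ± 0.07, SD, n = 3) than at P9 (9.09 ± 0.07, SD, n = 2), and that of *Galnt9* was higher at P14 (9.19 ± 0.12, SD, n = 3) than at P9 (8.46 ± 0.02, SD, n = 2). Over the 4 groups, *Lamp5* and *Galnt9* had the order P14 controls, P9 controls, P14 mutants and P9 mutants from high to low, in which the mutant groups did not differ beyond their spread for *Lamp5*. The order of *Tmem196* and *Zdhhc23* was P14 controls, P9 controls, P9 mutants and P14 mutants, in which the control groups did not differ beyond their spread for *Zdhhc23*. For *Bace2* and *Glp2r* it was P9 mutants, P14 mutants, P9 controls and P14 controls.

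**Figure D3:**
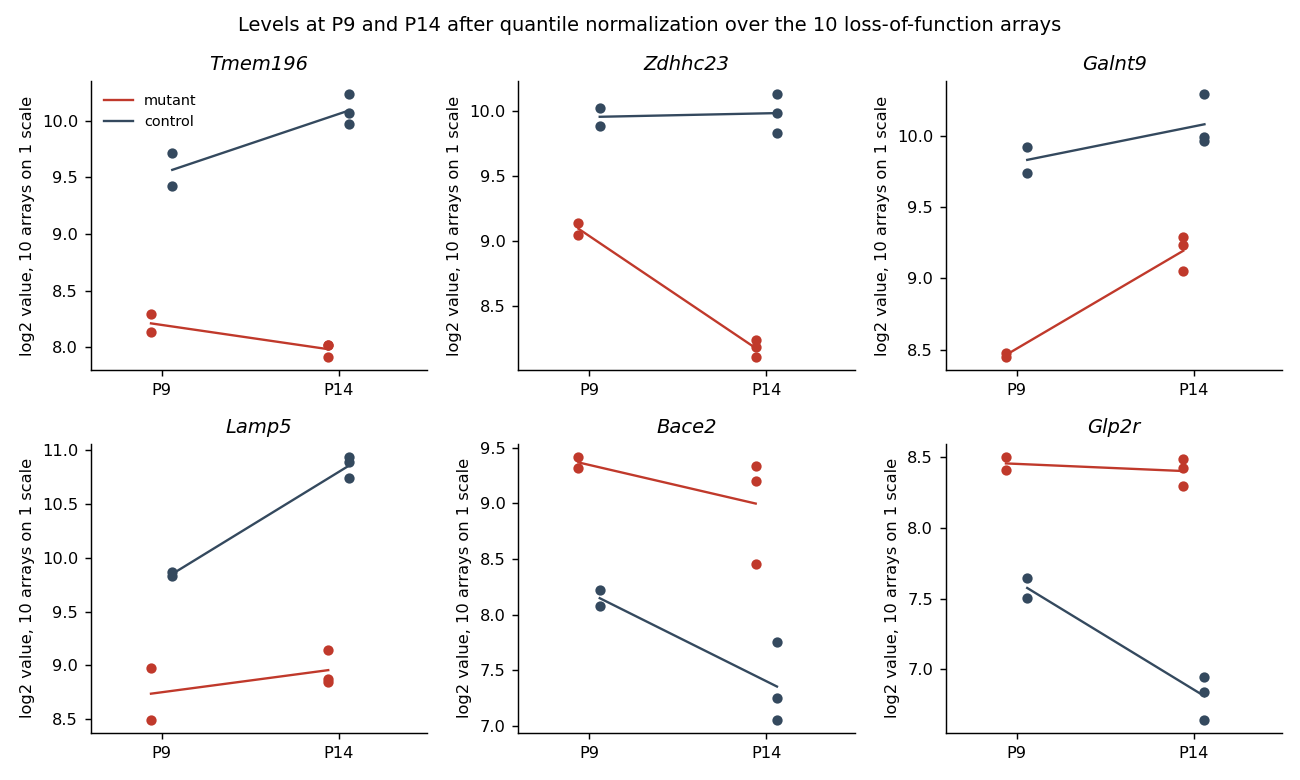
Log2 values (vertical axes) at P9 and P14 after quantile normalization over the 10 loss-of-function arrays, for each mutant (red) and control (blue) mouse, with lines between group means. In controls *Lamp5* lies 1.01 higher at P14 than at P9 and *Bace2* and *Glp2r* 0.79 and 0.77 lower, while *Glp2r* in mutants has means of 8.46 at P9 and 8.40 at P14.

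As a measure of likeness, the values of each gene were taken relative to the control mean of the age, and the root mean square distance between 2 genes was computed over the 10 P9 and P14 arrays. This measure has no test, and it reads mostly the difference between genotypes for which the 6 genes were chosen. *Tmem196* and *Lamp5* were 0.22 apart and *Zdhhc23* and *Lamp5* 0.24, against medians of 1.28 and 1.03 from *Tmem196* and *Zdhhc23* to all genes. *Galnt9* was farther from the other 3 lower genes, at 0.51 (*Zdhhc23*) to 0.58 (*Tmem196*), against a median of 0.86 to all genes. *Bace2* and *Glp2r* were 0.26 apart and were each the nearest gene of the other. The gene nearest to *Tmem196* was *Shc3*, a neuronal adaptor of receptor tyrosine kinases (0.14), with differences of -1.69 at P9 and -1.70 at P14. The gene nearest to *Zdhhc23* was *Spred2*, an inhibitor of Ras signaling to ERK (0.21), followed by *Vxn* (0.21) and the cation channel *Trpc5* (0.22). *Vxn* was also the nearest to *Lamp5* (0.16) and the third of *Tmem196* (0.30). *Galnt9* was nearest to the opsin *Opn3* (0.14), the *Spred2* relative *Spred3* (0.20) and the neuropeptide precursor *Vgf* (0.21), each of which, like *Galnt9*, had a larger difference at P9 than at P14 (-1.52 and -0.96 for *Opn3*, -1.18 and -0.78 for *Spred3* and -1.77 and -1.14 for *Vgf*). Next to *Glp2r*, *Bace2* was nearest to *Atp6ap1l* (0.35) and the matrix-binding protein *Abi3bp* (0.38), and *Glp2r* after *Bace2* to the tubulin *Tuba8* (0.27) and the ion exchanger *Slc24a4* (0.28).

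The relatives of the 6 genes were for the most part not called, where 0.0752% of all genes were called at P9 and 1.09% at P14. At these shares, lists of this size would hold few calls or none in any case, so the lack of a call does not show a family unchanged. Of 23 other palmitoyltransferases measured, 1 was called at P14, where 0.391% of all genes were called higher, and none at P9. The median difference was 0.03 at P9 and 0.08 at P14. At P14, 7 lay below 0 and 16 above, from -0.61 (*Zdhhc14*, limma adjusted p = 0.0778) to 0.87. The called gene, *Zdhhc22*, moved the other way from *Zdhhc23*: it rose to 11.45 ± 0.14 in P14 mutants, against 10.58 ± 0.20 in P14 controls (SD, n = 3 each), a difference of 0.87 (standard error 0.13, limma adjusted p = 0.0284). This call was lost without mutant 9 or 11 or control 10 or 12 (adjusted p between 0.126 and 0.155) and held within mice 9 to 12 (adjusted p = 0.00264). None of 18 other GalNAc transferases was called at P9 or P14, with differences from -0.55 to 0.38 and a median of 0.00 at P14. None of the 4 genes *Lamp1*, *Lamp2*, *Lamp3* and *Cd68* was called, and none of 13 genes of amyloid precursor processing, *Bace1* and the secretase subunits among them, whose P14 differences lay between -0.20 and 0.24. Neuronal nitric oxide synthase *Nos1*, the binding partner of the *Zdhhc23* product, had values of 9.78 ± 0.26 in P14 mutants and 9.32 ± 0.06 in P14 controls (SD, n = 3 each), a difference of 0.47 (adjusted p = 0.239). Of 14 genes related to *Glp2r* (receptors, ligands and the peptidase *Dpp4*), 1 was called at each age, the neuropeptide gene *Adcyap1*, which fell by 1.45 on the log2 scale at P14 (adjusted p = 0.0260) and by 1.28 at P9 (adjusted p = 0.0472), where 0.697% and 0.0502% of all genes were called lower. The P14 call was lost without mutant 9 or 11 or control 10 or 12 (adjusted p between 0.0559 and 0.140) and held within mice 9 to 12 (adjusted p = 0.00188), and the P9 call without mutant 1, mutant 4 or control 2 (adjusted p between 0.125 and 0.239). The proglucagon gene *Gcg*, from which the ligand of the GLP2R receptor is cut, differed by 0.18 at P14 (adjusted p = 0.859) and by -0.32 at P9 (adjusted p = 0.423).

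At P9 and at P14, none of 8 astrocyte, 7 oligodendrocyte, 5 oligodendrocyte precursor, 6 microglia and 5 endothelial markers was called, against 0.0752% and 1.09% of all genes. At P14, all 5 endothelial markers had lower means in mutants (median -0.28, mean level 8.32 to 8.51 in mutants and 8.60 to 8.81 in controls), as had all 8 astrocyte markers (median -0.09). At P9, the means of 2 of 5 endothelial and 2 of 8 astrocyte markers were lower in mutants (median differences 0.10 and 0.21). The part of these cells in the values of the 6 genes was not tested. Of 16 genes of the ERK feedback and target list, 8 fell and none rose at P14, against 0.697% of all genes called lower, with a list median of -0.67. Leaving out mutant 9 or 11 or control 2, 10 or 12 left 2 to 4 genes of the list called, and within mice 9 to 12 there were 11. The lowest p-values were those of *Spred2* (9.16 ± 0.05 in mutants and 10.49 ± 0.15 in controls, SD, n = 3 each; limma adjusted p = 0.00266), of the ETS transcription factor *Etv5* (adjusted p = 0.00469) and of the ERK phosphatase *Dusp6* (adjusted p = 0.0111), which lost its call without mutant 9 or 11 or control 10 or 12 (adjusted p between 0.0557 and 0.0709) and held it within mice 9 to 12 (adjusted p = 0.000404). At P9 the list had a median of -0.47, and *Spred2* alone was called, with a difference of -1.12 (adjusted p = 0.0468, and 0.0634 to 0.239 with 1 mouse left out), against 0.0502% of all genes called lower.

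At P21, the 6 genes were close to their controls in *ca-Map2k1;Neurod6-Cre* cortex, and none was called (limma, two-sided, Benjamini-Hochberg adjustment over 22180 genes). Neither was any other gene, so that the share called was 0%, with a lowest adjusted p of 0.107, while 2313 genes (10.4%) had an unadjusted p under 0.05. *Zdhhc23* came closest. It stood at 9.43, 9.49 and 9.49 in mutants 1, 3 and 6, against 9.29, 9.17 and 9.34 in controls 2, 4 and 5. These mice did not overlap, as was so in 15.8% of all genes (8.15% with mutants higher). The difference was 0.20 (standard error 0.07, 95% confidence interval 0.04 to 0.37, unadjusted p = 0.0224 and adjusted p = 0.388 from limma), and 3 of 3 mutants were above every control.

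*Glp2r* stood at 6.18, 5.69 and 6.00 in P21 mutants 1, 3 and 6, against 6.20, 6.12 and 6.21 in controls 2, 4 and 5. Mutant 3 was the lowest and mutant 1 lay among the controls. The difference was -0.22 (95% confidence interval -0.50 to 0.06, adjusted p = 0.589 from limma), and leaving out each mouse in turn gave -0.33 to -0.08. *Bace2* stood at 6.83, 6.97 and 6.66 in mutants, against 6.97, 6.98 and 6.90 in controls, a difference of -0.13 (-0.33 to 0.08, adjusted p = 0.672 from limma). *Tmem196* (9.69, 10.00 and 9.88 in mutants, against 9.70, 9.72 and 9.85 in controls) differed by 0.10 (-0.12 to 0.32, adjusted p = 0.765 from limma). The genotypes overlapped for both genes.

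*Galnt9* (9.43, 9.61 and 9.59 in mutants, against 9.39, 9.29 and 9.61 in controls) differed by 0.11 (-0.11 to 0.34, adjusted p = 0.744 from limma). *Lamp5* (11.33, 11.38 and 11.45 in mutants, against 11.28, 11.22 and 11.35 in controls) differed by 0.10 (-0.06 to 0.27, adjusted p = 0.681 from limma). Every interval lay within 0.50 of 0, and no P21 difference reached the size that the same gene had at P9 or P14. In sign, all 6 P21 differences were opposite to those at P14. Among 207 genes outside the 6 that were called at P14 and measured on both array types, 149 (72.0%) had the opposite sign at P21, and over all 18962 genes 49.4% had. The median size of the P21 difference was 0.12 for the 6 genes and for these 207, against 0.08 over all genes. Loss and gain of function were measured at different ages and on different array types, so the genotype, the age and the array type cannot be told apart between them.

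**Figure D4:**
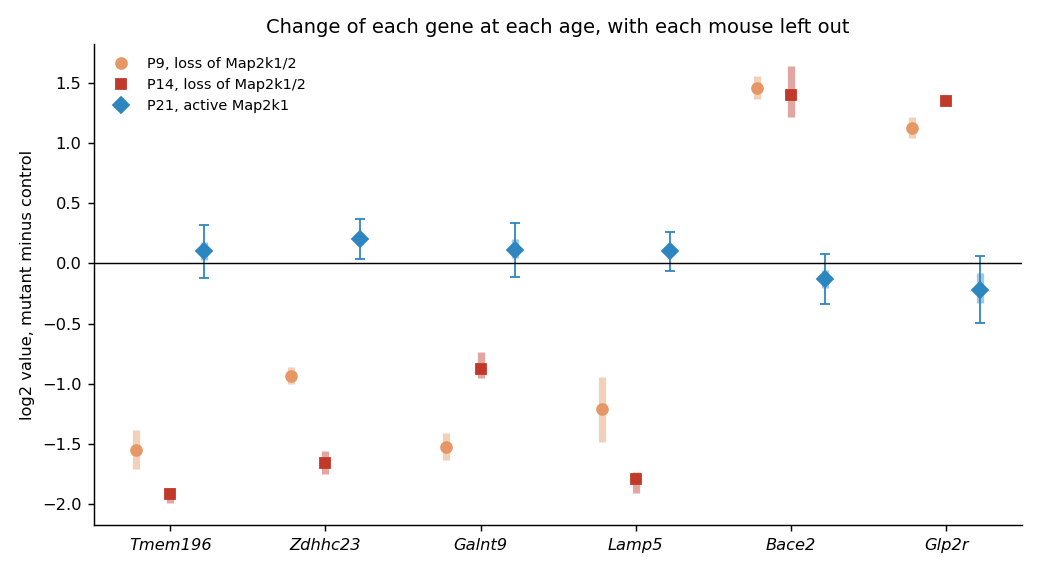
Log2 value of mutants minus controls (vertical axis) for each gene at P9 and P14 (loss of *Map2k1/2*) and P21 (active *Map2k1*). Pale bars span the values with each mouse left out, and thin bars at P21 are 95% confidence intervals, which span 0 for every gene but *Zdhhc23* (0.04 to 0.37).

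Of the genes nearest in pattern, *Abi3bp* and *Atp6ap1l* had lower P21 means in mutants, with differences of -1.07 (standard error 0.20, adjusted p = 0.203 from limma) and -0.72 (standard error 0.07, adjusted p = 0.107), the lowest adjusted p at P21. *Trpc5* differed by 0.46 (standard error 0.14, adjusted p = 0.327). The other nearest genes outside the 6 had smaller P21 differences, between -0.21 (*Tuba8*) and 0.22 (*Spred3*). Of these, *Spred2* (-0.10) and *Slc24a4* (0.14) had the same sign as at P14. Markers of oligodendrocytes were lower on average in the same mice, 7 of 7 with a median of -0.42 and none called, and the mean level over these 7 ran from 9.47 to 9.76 in P21 mutants and from 9.71 to 10.13 in P21 controls. Their part in the P21 values of the 6 genes was not tested.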

How the data were processed

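Cortical RNA of 16 mice was measured on Affymetrix arrays. The tissue is sensorimotor cortex in the labels and dorsal cortex in the methods. The authors computed the log2 values of both tables by RMA, with background adjustment, quantile normalization and median polish, before depositing them. The submitters' processing notes list Partek 6. The genome build was not given in the sources used here. Precision is limited by how few arrays there were.

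Probe sets with 1 gene symbol in the platform annotation were used, 21789 of 35557 in the table of P9 and P14 and 23521 of 41345 in that of P21. The brightest probe set represented a gene. Mutants were compared with controls within each age by limma 3.58.1 (lmFit, eBayes; R 4.3.3). Tests were two-sided, p-values were adjusted over all genes by the Benjamini-Hochberg method, and genes were called at an adjusted p under 0.05. Each P9 and P14 change of the 6 genes is a difference of means with no test. The genes and lists were chosen with earlier results of these data known. Genes named beside the 6 are up to 3 called members of a related list and the 3 nearest genes in pattern. Others are relatives and markers named after their values were seen (*Nos1*, *Gcg*, *Slc17a7*, *Slc17a6*, *Neurod6*, *Rasgrf2*, *Zdhhc14*). The fit was tested on simulated arrays. Promoters are RefSeq's (GRCm38.p6). Alternatives were other normalizations, a filter on dim probe sets, other variance moderation, the mean of probe sets, the methods' thresholds, sex, the arrays that stood apart, and each mouse left out.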

Additional observations from a re-analysis of the deposited data

How the results depend on the processing

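The direction of all 18 differences (6 genes at 3 ages) was kept under each alternative run. At P9 and P14 this is no check of the genes, which were chosen for large differences at those ages. Other variance moderation and thresholds cannot change a difference, and the filter on dim probe sets left each as it was. No gene of the 6 was called at P21 under any alternative. With the mean of its probe sets in place of the brightest, *Tmem196* differed by -1.08 at P14 and -1.03 at P9. *Lamp5* differed by -1.56 at P14 when sex was added to the fit, so that mutant 1 alone is set against the controls, and by -1.55 for mouse 1 minus mouse 2, for which *Galnt9* differed by -1.22. The counts of called genes moved most, and the cause was not tested. At P14, where 217 genes were called, there were 126 with median centring, 18 with no moderation, 330 at the methods' thresholds, 38 with sex in the fit, 480 in a single fit of P9 and P14, 984 within mice 9 to 12, 1333 with mice 1 and 2 as a block, and 27 to 304 with 1 mouse left out (27 without mutant 11, 39 without mutant 9 or control 12, 42 without control 10 and 137 without control 2). At P9, where 15 were called, there were 32 with median centring, 47 without dim probe sets, 7 with the mean of probe sets, 0 with no moderation, 235 with trended and robust moderation, 221 at the methods' thresholds, 120 at these with no moderation (chosen after seeing the data), 42 in the single fit, and 0 to 13 with 1 mouse left out (0 without mutant 1 or 4 and 5 without control 2). At P21, where none was called, there were 16 with trended and robust moderation, 134 at the methods' thresholds, 97 at these with no moderation (chosen after seeing the data), and 0 to 2 with 1 mouse left out (2 without mutant 1). With no moderation, none of the ERK targets and none of the named genes of the related lists was called (adjusted p from 0.0662 to 0.541), and with sex in the P14 fit 4 ERK targets were, while *Zdhhc22* (adjusted p = 0.219) and *Adcyap1* (adjusted p = 0.166) were not. Median centring ended the P14 calls of the same pair (adjusted p = 0.0633 and 0.0519). At P9, the mean of probe sets (adjusted p just above 0.05) and the single fit (adjusted p = 0.0663) ended the call of *Adcyap1*, and the mean of probe sets that of *Spred2* (adjusted p = 0.0830). A fit with sex was not run at P9 and P21, where all mice were male. No paired analysis was possible, as mutants and controls of an age share no mouse number. The methods name 2 litters at P9 and 3 at P14, but the sources used here assign no mouse to a litter. The fits therefore leave litter out. The block of mice 1 and 2 is one of arrays that stood apart, not of a labelled pair, and with it 11 ERK targets were called lower.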
